A study of Mus musculus with 12 samples.

Results

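Control mouse embryonic stem cells of day 6 were compared with control cells of day 3 of the same tamoxifen treatment, with 2 arrays on each day, or 4 of the 12 arrays of the series. The arrays were taken by their labels, and all 18194 genes with a probe set of their own were compared. The control cells carried loxP sites on both sides of a part of Thap11 on both alleles (Ronin flox/flox) and no CreERT2. The knockout cells carried the same flanked alleles and CreERT2, a recombinase that tamoxifen brings into the nucleus. Thap11 encodes Ronin, a zinc finger protein of the THAP family. Every group received tamoxifen at 0.25 µM, and cells without tamoxifen were not analysed here. Cells were plated at 100000 per 10 cm2, split on day 4 and plated again at that density. The cells of day 6 were therefore collected 2 days after a split, whereas those of day 3, like those of day 1.5, were collected before it. Length of treatment, the split, culture density and the processing of the arrays of 1 day cannot be told apart in this comparison. The labels give neither the name of the line nor the composition of the medium. They also do not state whether the 2 arrays of each day hold independent cultures, and the p-values therefore cover no more than the variation from array to array.

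Embryonic stem cells are derived from the early embryo, renew themselves in culture and are held in that state by a core of transcription factors that includes Pou5f1, Sox2 and Nanog. In culture they grow as colonies, and a split returns them to low density on a fresh surface. Serum response factor (SRF) and YAP are regulators that turn on genes of the actin cytoskeleton when actin assembles and cells spread. Other regulators follow the supply of oxygen and nutrients: HIF acts on hypoxia genes, FoxO factors on genes of low growth factor supply, and TFEB on genes of the lysosome.

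The control probe sets of the arrays set day 3 apart in both lines. Hybridisation controls, bacterial and phage transcripts added to the hybridisation mix (18 probe sets), had a geometric mean intensity of 2157 to 2421 on the 8 arrays of days 1.5 and 6, against 1483 to 1778 on the 4 arrays of day 3. The poly-A controls, bacterial transcripts read by 24 probe sets, lay at 46.47 to 56.12 on those 8 arrays, against 67.16 to 75.16 on the arrays of day 3. These controls were dim, not far above the median intensity over all probe sets of an array. That median was 42.37 to 43.04 on the 8 arrays, against 44.36 to 44.72 on day 3. The probe set for the 5′ end of 18S ribosomal RNA lay at 283.0 to 577.4 on those 8 arrays, against 1585 to 4737 on day 3. On day 3 this probe set differed between replicates 1 and 2, at 2098 and 4737 in controls and 1585 and 4209 in knockout cells. The ratio of 3′ to 5′ probe sets, a sign of RNA integrity, was 1.10 to 1.15 for Gapdh, against 1.17 to 1.23 on day 3, while that of beta-actin overlapped (1.68 to 1.94, against 1.65 to 1.89 on day 3). The part of these differences in the results was not tested. Within a group the arrays were close, with a correlation of log2 intensities across genes of 0.9983 on day 6 and 0.9982 on day 3. The SD of the log2 difference between the arrays of a group was 0.155 on day 6 and 0.162 on day 3.

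**Figure D1:**
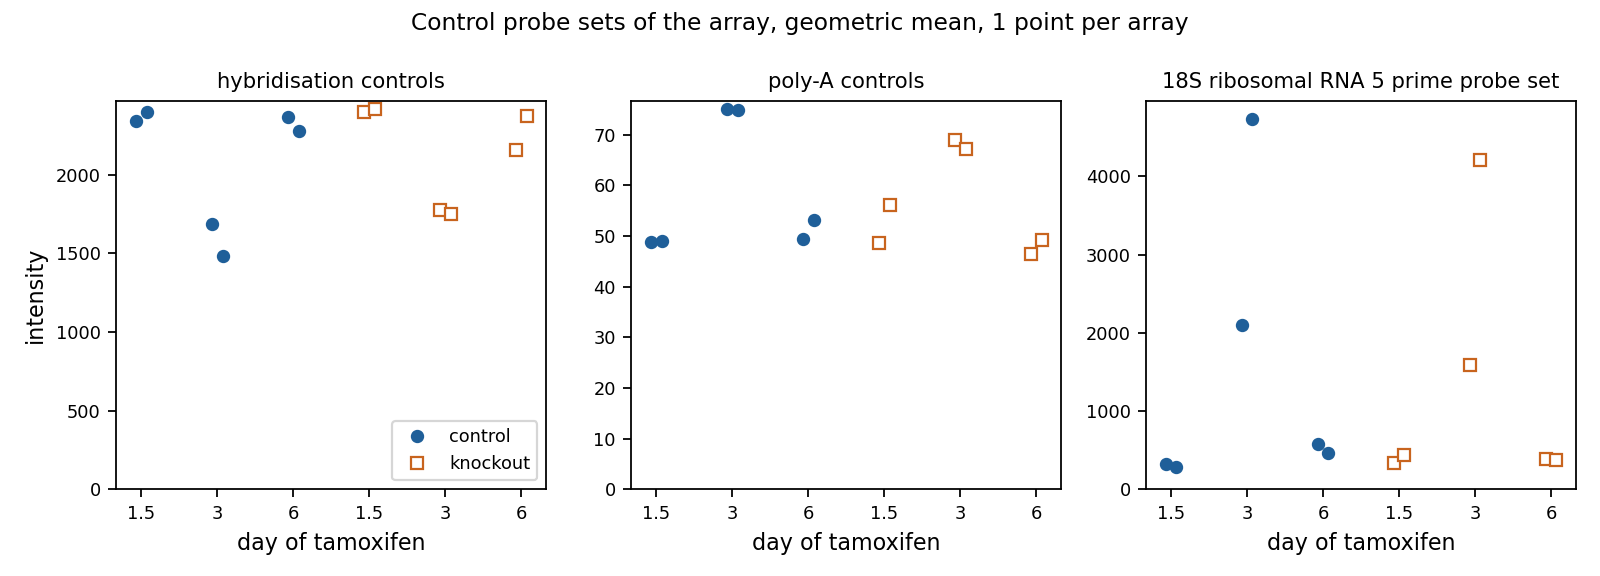
Geometric mean intensity of hybridisation controls, poly-A controls and the 5′ probe set of 18S ribosomal RNA on each array, by day of tamoxifen in control cells (filled circles) and knockout cells (open squares). In both lines the arrays of day 3 are the lowest in the first panel and the highest in the others.

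The defining markers of embryonic stem cells were bright on both days. Pou5f1, the central factor of pluripotency, had intensities of 11250 and 11630 on day 6, against 10980 and 11400 on day 3 (log2 difference 0.03 ± 0.047 SE, limma adjusted p = 0.66). Sox2 had 7820 and 7842 on day 6, against 7971 and 8866 on day 3 (-0.10 ± 0.083, adjusted p = 0.40). Thap11 was not called in control cells, with 1305 and 1382 on day 6, against 1279 and 1290 on day 3 (0.07 ± 0.083, adjusted p = 0.61). For comparison, Thap11 read 50.64 and 51.50 in knockout cells of day 6, against 110.2 and 92.72 in those of day 3. Hcfc1, which encodes HCF-1, a partner of Ronin, had 2558 and 2514 on day 6, against 2414 and 2358 on day 3 in controls (0.09 ± 0.074, adjusted p = 0.42). Markers of mesoderm were dim, and 1 of 11 was called higher, beside 19.5% of all genes. It was the homeobox gene Cdx1, at 31.42 and 31.51 on day 6, against 21.38 and 22.58 on day 3.

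Between the 2 days 5000 of 18194 genes were called at a Benjamini-Hochberg adjusted p under 0.05 in limma, or 27.5% of all genes. Of these, 3543 genes were higher on day 6 (19.5% of all) and 1457 were lower (8.01%). The size of a called log2 difference had a median of 0.35, and 124 genes rose and 17 fell at least 2-fold. The split into higher and lower depends on how the arrays are scaled. Of the called genes, 70.9% were higher on the deposited scale, against 44.4% after each array was centred on its median (2270 higher and 2840 lower) and 51.3% after quantile normalization (2303 higher and 2189 lower). The median log2 difference over all genes was 0.03 on the deposited scale and -0.06 after centring. With genes ranked by brightness and cut into 3 equal parts, it was -0.04 in the dimmest part and 0.09 in the brightest, so a small rise of a bright gene lay close to that shift. Rises of at least 2-fold still outnumbered falls after centring (95 against 24) and after quantile normalization (106 against 24). Without replicate 1 of day 6 the count was 3072, without replicate 2 of day 6 it was 3315, and with only the 4 arrays compared it was 2760. Leaving out 1 of the 4 arrays gave 2281 to 3037 higher and 791 to 1140 lower genes, with 791 lower without replicate 1 of day 6 and 968 without replicate 2 of day 6.

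The 2 largest rises were those of the annexin genes Anxa1 and Anxa3, and Krt8 and Krt18 were among the 12 largest. Annexins bind membranes in the presence of calcium, and keratins 8, 18 and 19 form the intermediate filaments of simple epithelia. Anxa1 had intensities of 674.0 and 721.9 on day 6, against 77.66 and 68.09 on day 3, a 9.59-fold rise (log2 difference 3.26 ± 0.089 SE, adjusted p = 1.4e-07). The arrays of the 2 days lay far apart, but the other, dimmer probe set of Anxa1 was not called. Anxa3 had 478.5 and 512.3 on day 6, against 57.34 and 51.86 on day 3 (3.18 ± 0.078, adjusted p = 6.4e-08). Krt8 had 3962 and 4078 on day 6, against 659.8 and 595.3 on day 3 (2.68 ± 0.061), and its other 2 probe sets were called in the same direction. Its filament partner Krt18 had 2114 and 2122 on day 6, against 402.2 and 339.5 on day 3 (2.52 ± 0.078). Of 16 measured genes of keratins, annexins and their partners, 13 were higher and 0 lower, beside the 19.5% and 8.01% of all genes, with a median log2 difference of 0.94 (0.03 over all genes). Like the other lists, this one was chosen with earlier results of these data known. Its count is thus a description of the list and not a test. The brightest members not called were Anxa7, at 1793 and 1765 on day 6, against 1856 and 1767 on day 3, and the galectin gene Lgals3, at 1483 and 1488 on day 6, against 1341 and 1387 on day 3. The group was thus unequal, from differences of over 3 in Anxa1 and Anxa3 to -0.03 in Anxa7. Before the split, on day 1.5, Anxa1 had read 514.8 and 465.7, Anxa3 318.7 and 281.0, and Krt8 2175 and 2157. For these 3 genes day 1.5 lay between the other days, closer to day 6 on the log2 scale. The list median was -0.61 for day 3 minus day 1.5 and 0.48 for day 6 minus day 1.5.

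**Figure D2:**
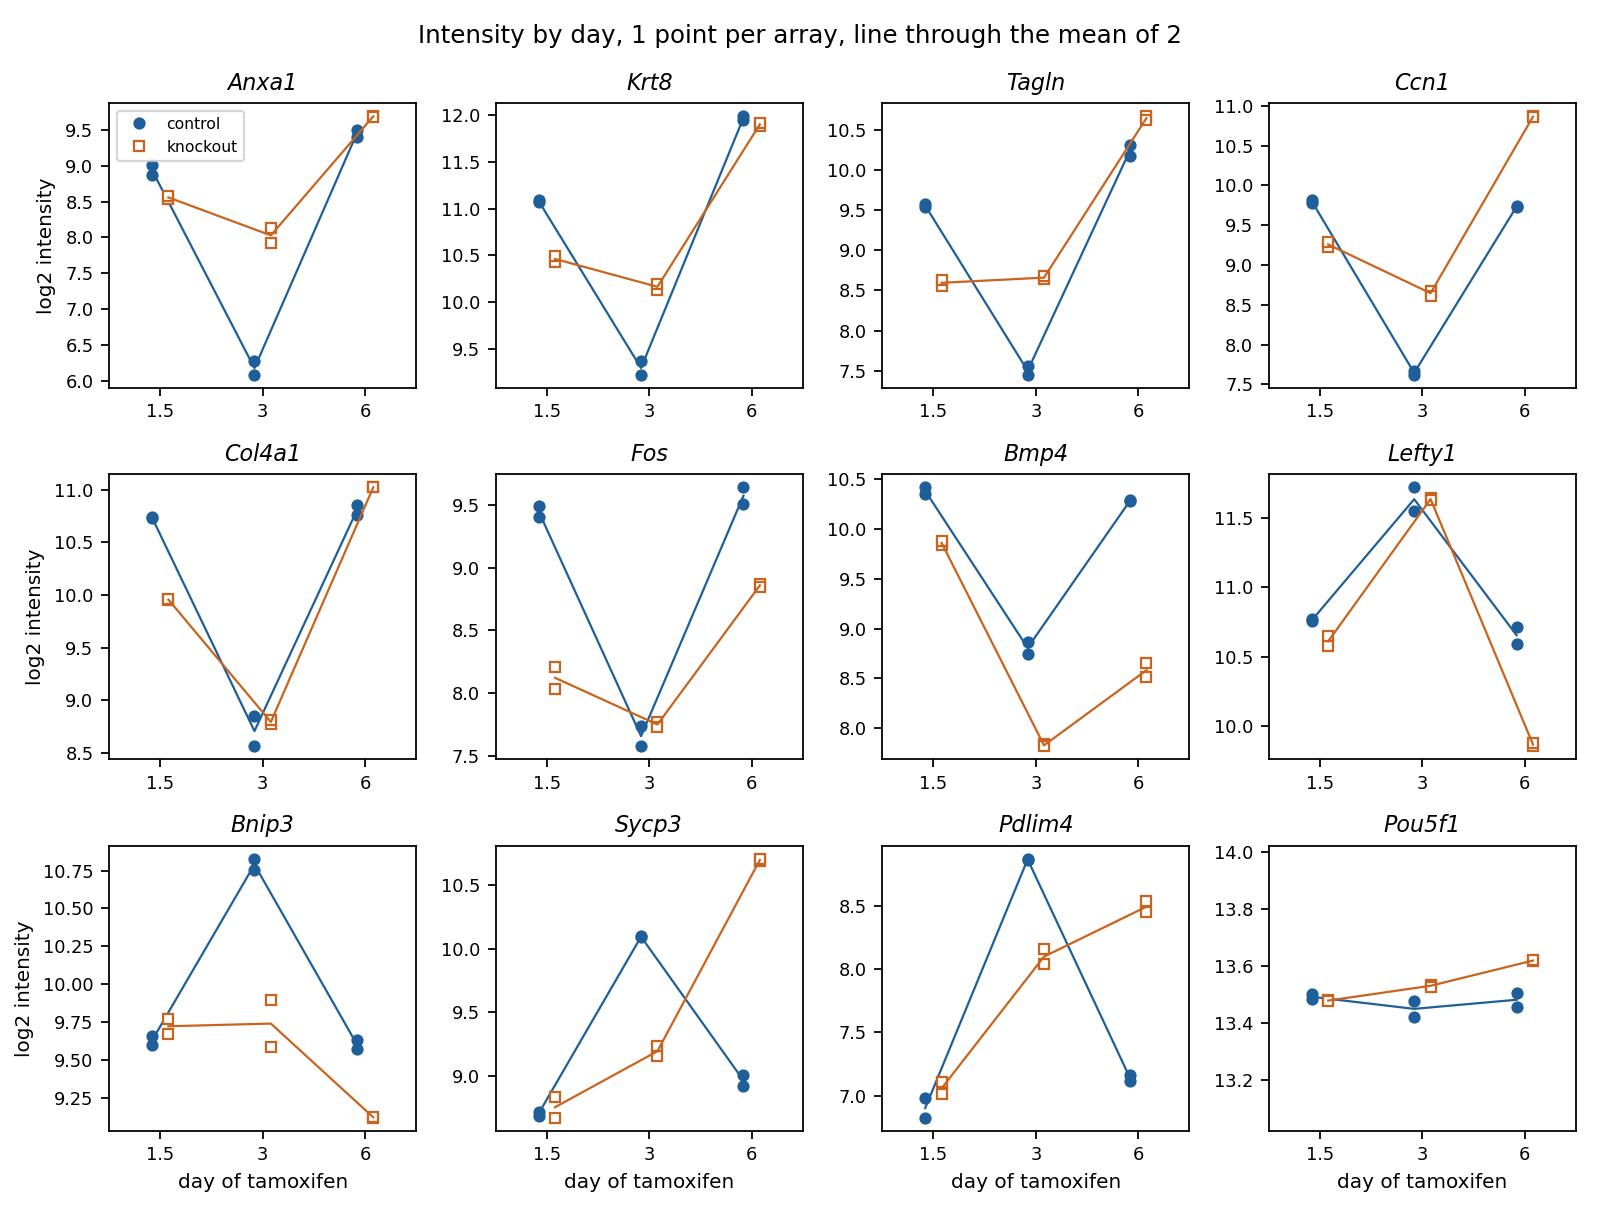
Log2 intensity of 12 genes on each array by day of tamoxifen in control cells (filled circles) and knockout cells (open squares), with lines through the mean of the 2 arrays. In control cells the first 7 genes are lowest on day 3 and the next 4 are highest on day 3, while Pou5f1 keeps within a narrow range.

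The other 4 of the 12 largest rises were in genes of mixed roles. Prss23 (shared probes), which encodes a serine protease, had 130.9 and 146.5 on day 6, against 18.61 and 18.16 on day 3 (log2 difference 2.91 ± 0.12 SE). Cryab, a small heat shock protein, had 414.3 and 424.1 on day 6, against 70.76 and 66.84 on day 3 (2.61 ± 0.085). Of the other 2 probe sets of each of these genes, 1 was called in the same direction and 1 was not called. Glipr1, of the CAP family of secreted proteins, had 197.1 and 250.5 on day 6, against 38.95 and 48.11 on day 3 (2.36 ± 0.18). Phldb2, a protein of the cell cortex, had 381.2 and 376.6 on day 6, against 66.85 and 92.08 on day 3 (2.27 ± 0.12). The largest rises were picked among called genes whose arrays did not overlap between the days, so their lack of overlap is no finding.

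Of 25 measured target genes of SRF and YAP 17 were higher and 0 lower, beside 19.5% and 8.01% of all genes, with a median of 0.71, and 8 were not called. After centring, as after quantile normalization, 16 were higher and 0 lower, beside 12.5% and 12.7% of all genes higher. Tagln, which encodes the actin-binding protein transgelin, had 1158 and 1270 on day 6, against 174.6 and 187.9 on day 3 (log2 difference 2.74 ± 0.064 SE, adjusted p = 6.4e-08). Acta2, the smooth muscle actin gene, had 1034 and 1076 on day 6, against 171.0 and 146.5 on day 3 (2.74 ± 0.11). Its probe set shares probes with other transcripts, and its other 2 probe sets were not called. Ccn1, a secreted matrix protein and YAP target, had 854.4 and 849.9 on day 6, against 203.5 and 196.4 on day 3 (2.09 ± 0.051). That probe set shares probes too, and of the 3 others 1 was called, in the same direction. The matrix glycoprotein gene Thbs1 had 98.82 and 110.0 on day 6, against 21.16 and 38.91 on day 3 (1.86 ± 0.22). In all 4 genes the arrays of the 2 days did not overlap, which was so for 62.8% of all genes. For Tagln and Acta2, as largest rises, this was a condition of the choice. The cytoplasmic actins were the brightest members not called. Actb had 21480 and 21350 on day 6, against 21440 and 21020 on day 3, and Actg1 (shared probes) had 19790 and 19400 on day 6, against 18910 and 18350 on day 3. The log2 differences of these cytoplasmic actins were 0.01 and 0.07, beside 2.74 for Acta2. On day 1.5 Tagln had read 760.2 and 744.8, Acta2 726.0 and 684.4, and Ccn1 901.6 and 882.6. The median of the SRF and YAP list was -0.43 for day 3 minus day 1.5 and 0.11 for day 6 minus day 1.5.

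SRF binds a short element known as the CArG box. In RefSeq promoter windows of the build GRCm38.p6, the 250 bases before the start of 20 of the 25 genes could be read, and 5 of them held a CArG box in its strict form on either strand, a form that reads the same on both strands. Over all 27025 genes with a window the share was 1.40%. The list was made of known targets, so this is a description of the list and not of the change. A match is not a shown site, and genes without a match may hold a looser form. Of the 5 genes, Myl9, Cnn2 and Vcl rose, while Actg1 and Srf were not called. The 3 windows of the genes that rose are printed 5′ to 3′ on the strand of the gene, with the CArG box in capitals. They were chosen after their values were seen, to show the element beside its genes. Myl9 lies on chromosome 2 (chr2:156775214-156775463, plus strand), Cnn2 on chromosome 10 (chr10:79988350-79988599, plus strand) and Vcl on chromosome 14 (chr14:20929148-20929397, plus strand).
Myl9: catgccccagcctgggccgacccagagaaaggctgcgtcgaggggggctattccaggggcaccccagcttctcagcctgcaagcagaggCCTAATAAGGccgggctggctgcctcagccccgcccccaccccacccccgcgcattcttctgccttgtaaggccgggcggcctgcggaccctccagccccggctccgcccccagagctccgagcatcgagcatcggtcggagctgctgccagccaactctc
Cnn2: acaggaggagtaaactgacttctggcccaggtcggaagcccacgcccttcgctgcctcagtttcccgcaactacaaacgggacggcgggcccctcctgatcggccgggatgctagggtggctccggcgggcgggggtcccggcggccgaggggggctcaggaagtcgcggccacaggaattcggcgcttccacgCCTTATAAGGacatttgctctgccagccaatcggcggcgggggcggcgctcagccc
Vcl: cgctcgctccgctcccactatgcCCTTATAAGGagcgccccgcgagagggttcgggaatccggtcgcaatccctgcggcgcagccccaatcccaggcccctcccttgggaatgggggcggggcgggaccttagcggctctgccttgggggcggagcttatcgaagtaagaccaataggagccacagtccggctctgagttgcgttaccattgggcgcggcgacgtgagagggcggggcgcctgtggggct
The first base of the box lies 161, 56 and 227 bases before the start of Myl9, Cnn2 and Vcl. Myl9, a light chain of non-muscle and smooth muscle myosin, had 233.2 and 207.6 on day 6, against 77.96 and 68.35 on day 3 (log2 difference 1.59 ± 0.1 SE). Cnn2, a calponin that binds actin, had 1452 and 1515 on day 6, against 919.4 and 891.7 on day 3 (0.71 ± 0.063). Vcl, the focal adhesion protein vinculin, had 1186 and 1223 on day 6, against 870.2 and 823.3 on day 3 (0.51 ± 0.054). The 3 genes thus rose by unequal amounts. The arrays of the days did not overlap in any of them, as in 62.8% of all genes. Srf itself, named after its values were seen, had 262.0 and 282.7 on day 6, against 263.6 and 247.5 on day 3 (adjusted p = 0.36).

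Genes of primitive endoderm, the extraembryonic layer that lays down the first basement membrane, had 16 of 19 measured members higher and 0 lower, with a median of 0.75. Of all genes 19.5% were higher and 8.01% lower. The list median was -0.7 for day 3 minus day 1.5 and 0.07 for day 6 minus day 1.5. The collagen IV chains led. Col4a1 had 1730 and 1845 on day 6, against 378.2 and 462.4 on day 3 (log2 difference 2.09 ± 0.085 SE, adjusted p = 1.3e-06), and its other probe set was called in the same direction. Col4a2 had 555.6 and 552.3 on day 6, against 125.8 and 121.6 on day 3 (2.16 ± 0.083). The 2 genes lie head to head on chromosome 8, with RefSeq starts 21 bases apart on opposite strands, and on day 1.5 they had read 1709 and 1698 for Col4a1 and 503.5 and 448.5 for Col4a2. Srgn, the proteoglycan serglycin, had 765.8 and 804.9 on day 6, against 235.8 and 236.5 on day 3 (1.73 ± 0.11). Sox7, a transcription factor of endoderm and vessels, had 197.1 and 204.2 on day 6, against 73.69 and 86.10 on day 3 (1.33 ± 0.084), while its other probe set was not called. The other defining factors were dim on both days. Gata6 had 105.8 and 112.1 on day 6, against 46.48 and 54.96 on day 3, Gata4 had 43.87 and 39.73 on day 6, against 30.42 and 33.65 on day 3, and Sox17 had 62.77 and 58.45 on day 6, against 34.19 and 38.07 on day 3. These 3 genes were called higher and are named after their values were seen. Gata4 lost its call after centring (adjusted p = 0.069) and without any 1 of the 4 arrays, and the other 2 probe sets of Gata6 were not called. The hepatic and visceral endoderm genes Ttr and Hnf4a were not called, at 60.54 and 70.16 for Ttr on day 6, against 65.83 and 78.80 on day 3, and at 53.39 and 62.26 for Hnf4a on day 6, against 60.13 and 62.08 on day 3. In a bulk sample, more cells of a type and more RNA per cell cannot be told apart.

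**Figure D3:**
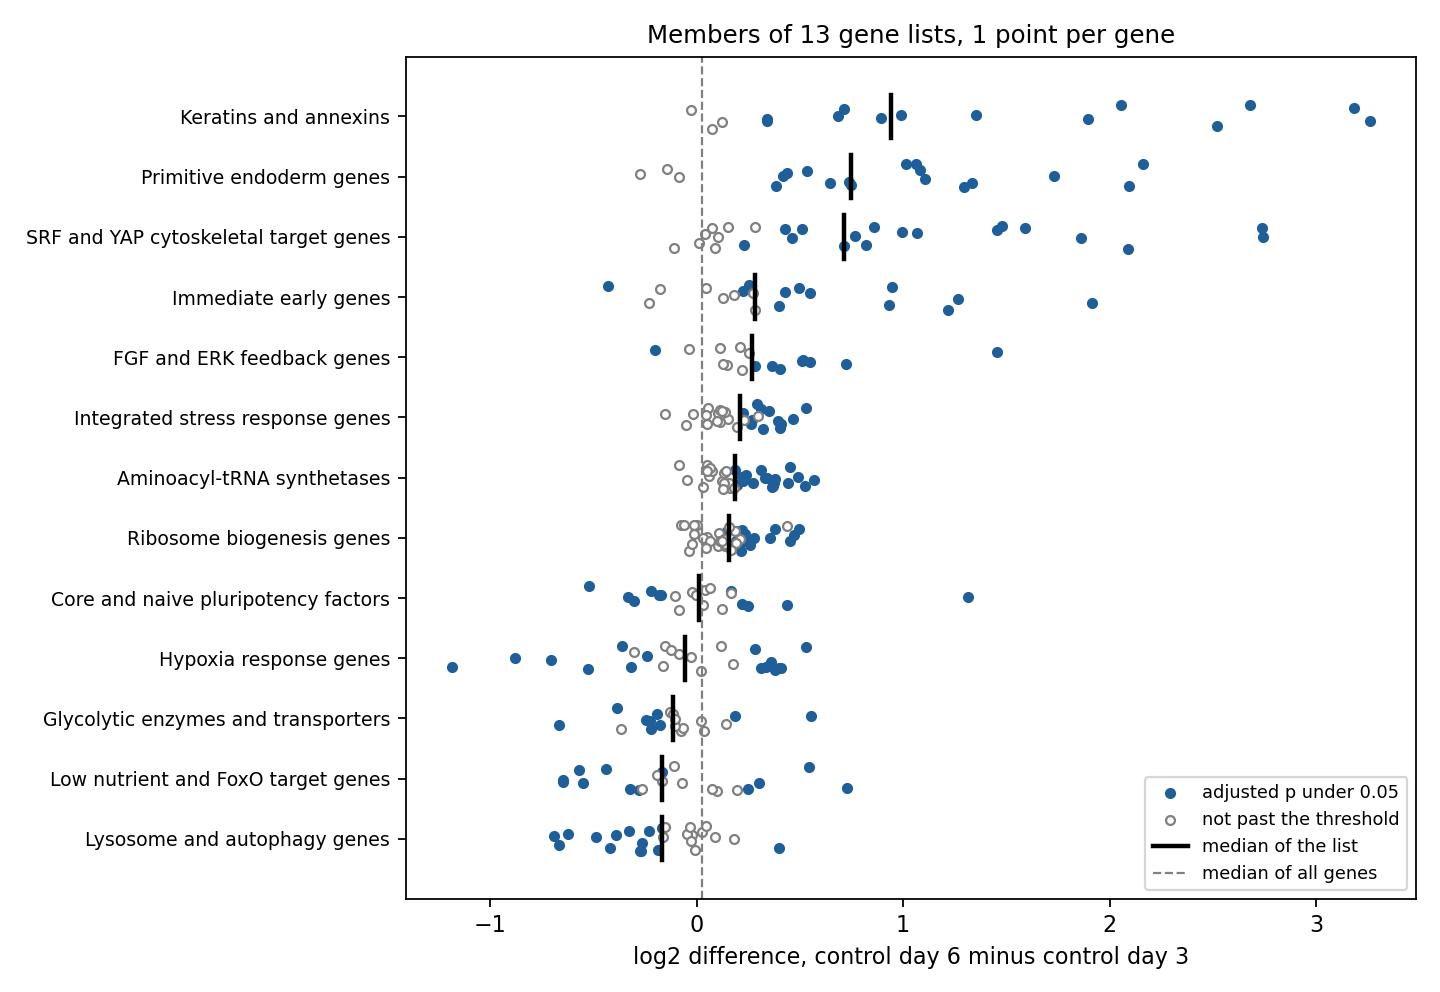
Log2 difference of control day 6 minus control day 3 for the measured members of 13 gene lists, filled where the gene was called. The black bars are list medians, from 0.94 in keratins and annexins to -0.17 in lysosome and autophagy genes, and the dashed line is the median of all genes.

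Fibroblast and feeder cell markers had 7 of 22 members higher and 1 lower (median 0.21), beside 19.5% and 8.01% of all genes. The rises were led by Tagln and Acta2, which are also in the SRF and YAP list, Vim and the collagen gene Col1a2. Vim (shared probes) had 1336 and 1385 on day 6, against 525.0 and 697.4 on day 3 (1.17 ± 0.11). Col1a2 had 78.71 and 84.16 on day 6, against 35.13 and 45.43 on day 3 (1.03 ± 0.15). The summed intensity of the list was 8746 to 9135 on day 6, against 6632 to 6954 on day 3. The rise of this sum lay in Tagln, Acta2 and Vim, and 14 of the 22 members were not called. The fibroblast genes Dcn and Lum, named after their values were seen, lay at 31.38 and 27.13 for Dcn on day 6, against 29.73 and 29.04 on day 3, and at 10.71 and 12.45 for Lum on day 6, against 10.89 and 11.13 on day 3. The lowest intensity in the table was 5.511, so Lum was near the floor. The part of other cells in the rises was not tested. Trophoblast markers had 4 of 11 higher and 1 lower, with Krt8 and Krt18 in front. Krt7 rose by 0.69, and Tfap2c (shared probes), a factor of trophoblast and germ cells, fell, with 1448 and 1398 on day 6, against 2217 and 2682 on day 3 (-0.78 ± 0.082). Neural markers had 4 of 11 higher and 1 lower, such as Nes at 321.4 and 321.0 on day 6, against 223.1 and 201.1 on day 3 (0.60 ± 0.077). The other 2 probe sets of Nes were not called, and with the mean of its probe sets its call was lost (adjusted p = 0.23). Another was Sox1, a dim gene, at 40.34 and 37.90 on day 6, against 24.00 and 29.81 on day 3.

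Of 20 pluripotency factors 5 were higher and 6 lower, beside 19.5% and 8.01% of all genes, with a median of 0.01. Centring gave 2 higher and 7 lower, and quantile normalization 3 higher and 6 lower. Without either array of day 6 or without replicate 1 of day 3, 2 or 3 were higher, and without either array of day 6 or without replicate 2 of day 3, 3 were lower. Gbx2, a homeobox factor of the naive state, rose most, with 267.3 and 293.6 on day 6, against 108.6 and 117.0 on day 3 (log2 difference 1.31 ± 0.073 SE, adjusted p = 8.4e-06). Nr0b1, a nuclear receptor cofactor, had 2539 and 2534 on day 6, against 1881 and 1870 on day 3 (0.44 ± 0.047). Nanog fell, with 5411 and 5725 on day 6, against 6736 and 6992 on day 3 (-0.30 ± 0.052, adjusted p = 0.0031). Dppa3, a maternal factor also expressed in germ cells, had 1937 and 2004 on day 6, against 2997 and 2661 on day 3 (-0.52 ± 0.082). Tcl1, a cofactor of the AKT kinase, had 1517 and 1536 on day 6, against 1971 and 1879 on day 3 (-0.33 ± 0.056). Among these genes Gbx2 thus moved most, and the falls were small. Of 13 measured genes of the primed epiblast, 6 were higher and 0 lower (median 0.19), such as Foxd3 at 260.4 and 289.0 on day 6, against 151.8 and 164.5 on day 3 (0.80 ± 0.085) and the Wnt effector Lef1 at 138.7 and 148.3 on day 6, against 96.68 and 103.0 on day 3 (0.52 ± 0.077). The methyltransferase gene Dnmt3b was not called, at 5731 and 5717 on day 6, against 5324 and 5334 on day 3.

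Genes of growth factor signalling changed member by member. Of all genes 19.5% were higher and 8.01% lower. Among immediate early genes, which respond to growth factors within minutes to hours, 11 of 19 were higher and 1 lower (median 0.28), and 6 were higher without replicate 2 of day 6. Fos had 726.9 and 797.7 on day 6, against 213.3 and 190.5 on day 3 (log2 difference 1.92 ± 0.081 SE, adjusted p = 1.4e-06). Myc had 690.8 and 671.8 on day 6, against 283.6 and 282.0 on day 3 (1.27 ± 0.054), and Atf3 had 204.8 and 208.5 on day 6, against 106.6 and 108.1 on day 3 (0.95 ± 0.11). The phosphatase gene Dusp1, the brightest member not called, had 2302 and 2424 on day 6, against 2279 and 2304 on day 3. Fos and Myc were thus over 2-fold higher while Dusp1 overlapped between days. The median of the immediate early list was -0.19 for day 3 minus day 1.5 and 0.12 for day 6 minus day 1.5. Of 16 feedback genes of FGF and ERK 8 were higher and 1 lower (median 0.27), led by Phlda1, at 441.4 and 491.6 on day 6, against 173.0 and 167.1 on day 3 (1.45 ± 0.062), and Dusp6, a phosphatase of ERK, at 1398 and 1342 on day 6, against 822.8 and 832.7 on day 3 (0.73 ± 0.060). The list median was -0.15 for day 3 minus day 1.5 and 0.07 for day 6 minus day 1.5.

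Nodal and BMP, both ligands of the TGF-beta family, had genes that moved in opposite directions. Of 18 members 7 were higher and 4 lower, beside 19.5% and 8.01% of all genes. Bmp4, the ligand, had 1253 and 1241 on day 6, against 468.0 and 428.9 on day 3 (log2 difference 1.48 ± 0.065 SE, adjusted p = 1.8e-06). Id3, a BMP target that blocks helix-loop-helix factors, had 759.0 and 828.6 on day 6, against 350.3 and 366.8 on day 3 (1.15 ± 0.076). The activin inhibitor gene Fst had 97.53 and 130.5 on day 6, against 41.20 and 36.56 on day 3 (1.54 ± 0.13). In contrast Lefty1, a Nodal target that feeds back on Nodal, had 1543 and 1683 on day 6, against 2993 and 3370 on day 3 (-0.98 ± 0.069), and Lefty2 had 727.7 and 722.1 on day 6, against 875.1 and 962.1 on day 3 (-0.34 ± 0.060). Nodal itself was not called, at 1660 and 1775 on day 6, against 1586 and 1600 on day 3, though its other probe set was called higher. Id4, another BMP target of the list, fell as well, with 276.8 and 271.5 on day 6, against 354.7 and 338.3 on day 3 (-0.34 ± 0.059), and its other 2 probe sets were called in the same direction. The BMP targets Id3 and Id4 thus moved in opposite directions. Of 18 Wnt target and feedback genes 8 were higher and 3 lower, or 5 and 3 after either rescaling, and 4 were higher without replicate 2 of day 6 or replicate 1 of day 3. The largest rise was that of Sp5, at 56.11 and 67.70 on day 6, against 23.36 and 22.51 on day 3 (1.43 ± 0.11). Ccnd2, a cyclin of the G1 phase, had 290.5 and 299.4 on day 6, against 98.33 and 95.34 on day 3 (1.61 ± 0.062), and 5 of its other 6 probe sets were called in the same direction. The list of G1 and S phase genes, Ccnd2 included, had 5 of 22 higher and 5 lower. After either rescaling 1 was higher and 9 lower, against the same rescaled shares of all genes. Leaving out 1 array gave 1 to 3 higher. Cdc25a had 1289 and 1292 on day 6, against 1978 and 1708 on day 3 (-0.51 ± 0.074).

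Falls of at least 2-fold were fewer than rises. Lrrc31, which encodes a leucine-rich repeat protein, had 52.07 and 40.97 on day 6, against 206.6 and 157.1 on day 3 (log2 difference -1.96 ± 0.16 SE, adjusted p = 7.7e-05). The long noncoding RNA Malat1 had 3327 and 2267 on day 6, against 12860 and 7165 on day 3 (-1.81 ± 0.29, adjusted p = 0.0021). The 2 arrays of day 3 lay far apart, and days that did not overlap were a condition of the choice of falls. Of the 6 other probe sets of Malat1 4 were called in the same direction, and the one used shares probes with other transcripts. Pdlim4, a PDZ and LIM protein of the actin cytoskeleton, had 138.7 and 143.1 on day 6, against 467.9 and 464.7 on day 3 (-1.73 ± 0.071, adjusted p = 1.3e-06). It fell while 17 of the 25 SRF and YAP targets rose. Sycp3, a lateral element of the meiotic synaptonemal complex, had 485.5 and 513.6 on day 6, against 1097 and 1091 on day 3 (-1.13 ± 0.065). Its partner Sycp1 went the other way, with 173.2 and 150.4 on day 6, against 79.90 and 75.13 on day 3 (1.06 ± 0.12). Of 16 germline genes 6 were higher and 2 lower, beside 19.5% and 8.01% of all genes. On day 1.5 Lrrc31 had read 43.96 and 36.60, Pdlim4 113.3 and 126.1, and Sycp3 421.4 and 412.3, each nearer to day 6 than to day 3.

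The remaining 7 of the 12 largest falls were in genes of mixed roles. Pdzk1, a scaffold with PDZ domains, had 62.54 and 58.09 on day 6, against 158.4 and 150.0 on day 3 (log2 difference -1.35 ± 0.14 SE). Cds1, which makes CDP-diacylglycerol, had 130.1 and 136.4 on day 6, against 298.3 and 279.7 on day 3 (-1.12 ± 0.085). Car12, a carbonic anhydrase of the cell surface, had 113.9 and 121.7 on day 6, against 255.1 and 248.4 on day 3 (-1.10 ± 0.075), and its other 2 probe sets were not called. As for the other largest falls, days that did not overlap were a condition of the choice. Camk2n1, an inhibitor of CaM kinase II, had 127.0 and 119.8 on day 6, against 274.2 and 231.2 on day 3 (-1.03 ± 0.092). Ammecr1 had 63.92 and 51.13 on day 6, against 156.9 and 139.3 on day 3 (-1.37 ± 0.22). The other probe set of each of these genes was not called. Gpr143, a receptor of melanosomes, had 15.27 and 11.73 on day 6, against 33.01 and 26.42 on day 3 (-1.14 ± 0.15). Tbrg3 had 18.32 and 16.43 on day 6, against 57.49 and 30.65 on day 3 (-1.27 ± 0.23). Both lay near the floor of the scale, and the arrays of day 3 differed for Tbrg3.

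Several genes of low oxygen supply fell. Bnip3, a mitophagy receptor induced by hypoxia, had 793.3 and 761.9 on day 6, against 1723 and 1817 on day 3 (log2 difference -1.19 ± 0.091 SE, adjusted p = 5.4e-05). The prolyl hydroxylase gene Egln3 had 230.9 and 234.7 on day 6, against 431.3 and 425.8 on day 3 (-0.88 ± 0.061), and Ddit4, an inhibitor of mTORC1, had 1904 and 2003 on day 6, against 3261 and 3102 on day 3 (-0.70 ± 0.057). The hypoxia list did not move as 1 group, with 8 of 24 higher and 7 lower (median -0.05), beside 19.5% and 8.01% of all genes. Stc2, a secreted glycoprotein, rose, with 358.5 and 345.7 on day 6, against 246.4 and 241.4 on day 3. Of 19 glycolytic genes 2 were higher and 7 lower (median -0.11). After centring 1 was higher and 13 lower, beside 12.5% and 15.6% of all genes. Without replicate 1 of day 6, 2 were lower, and without replicate 1 of day 3, 4 were. Hk1, a hexokinase, had 530.5 and 661.0 on day 6, against 1006 and 877.1 on day 3 (-0.67 ± 0.10), while Gapdh, the brightest, was not called, at 20980 and 21570 on day 6, against 22340 and 22140 on day 3. After centring Gapdh was called lower (-0.149, limma adjusted p = 0.037).

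Of 25 genes of lysosome and autophagy 13 were lower and 1 higher, beside 8.01% and 19.5% of all genes, with a median of -0.17. Without replicate 1 of day 6, 5 were lower, and without replicate 1 of day 3, 8 were. Lamp2 (shared probes), a lysosomal membrane protein, had 1568 and 1643 on day 6, against 2643 and 2546 on day 3 (log2 difference -0.69 ± 0.073 SE, adjusted p = 0.00028), and its other 3 probe sets were called in the same direction. Hexa, a lysosomal hexosaminidase subunit, had 2267 and 2423 on day 6, against 3581 and 3640 on day 3 (-0.62 ± 0.051). Ulk1, the kinase that starts autophagy, had 1253 and 1270 on day 6, against 1809 and 1729 on day 3 (-0.49 ± 0.059). Lamp1 was not called, at 6426 and 6400 on day 6, against 6439 and 6592 on day 3. The median of the lysosome list was 0.24 for day 3 minus day 1.5 and 0.11 for day 6 minus day 1.5. Of 20 genes of low nutrient supply and FoxO 8 were lower and 4 higher (median -0.17). Insr, the insulin receptor gene, had 128.6 and 134.1 on day 6, against 205.4 and 206.0 on day 3 (-0.65 ± 0.081), and Cpt1a, which brings fatty acids into mitochondria, had 208.9 and 211.5 on day 6, against 347.2 and 313.1 on day 3 (-0.65 ± 0.084). The adaptor gene Irs2 moved against them, with 223.0 and 226.3 on day 6, against 151.9 and 121.1 on day 3 (0.73 ± 0.14).

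Lists of protein synthesis and folding held small rises beside many members that were not called. Of 35 aminoacyl-tRNA synthetases, which charge tRNAs, 18 were higher and 0 lower (median 0.19), beside 19.5% and 8.01% of all genes. After either rescaling 14 were higher, beside 12.5% of all genes after centring and 12.7% after quantile normalization. Rars, the arginine enzyme, had 3883 and 3889 on day 6, against 3021 and 2668 on day 3 (log2 difference 0.45 ± 0.061 SE, adjusted p = 0.00095). Of 41 genes of ribosome biogenesis and RNA polymerase I 16 were higher and 0 lower (median 0.16), against 7 after centring and 6 after quantile normalization, where 12.5% and 12.7% of all genes were higher. Without replicate 1 of day 6 or replicate 2 of day 3, 8 were higher, and without replicate 2 of day 6, 6 were. Polr1b, a core subunit of polymerase I, had 1455 and 1521 on day 6, against 1012 and 1097 on day 3 (0.50 ± 0.060), while the nucleolar gene Npm1 was not called, at 20800 and 21200 on day 6, against 20330 and 21590 on day 3. Of 28 genes of the integrated stress response 12 were higher and 0 lower (median 0.21), such as the cystathionine lyase gene Cth at 4431 and 4620 on day 6, against 3290 and 3263 on day 3 (0.47 ± 0.049). Their list median was 0.11 for day 3 minus day 1.5 and 0.31 for day 6 minus day 1.5. Chaperones of the endoplasmic reticulum had 10 of 18 higher and 1 lower. Without either array of day 6 or after centring 6 were higher, beside 12.5% of all genes after centring. An example is the disulfide isomerase gene Pdia3 at 4443 and 4442 on day 6, against 3137 and 3131 on day 3 (0.50 ± 0.045). Mitosis genes had 12 of 31 higher and 1 lower, 7 and 3 after centring, and 9 and 2 after quantile normalization. DNA replication genes had 9 of 38 higher and 2 lower, a share of higher genes near the 19.5% of all genes. They had 4 and 3 after centring and 4 and 2 after quantile normalization, against the same rescaled shares of all genes. Without either array of day 6 or without replicate 2 of day 3, 4 or 5 were higher. Among mitosis genes Kif20a, a kinesin of cell division, stood at 1479 and 1431 on day 6, against 1022 and 1008 on day 3 (0.52 ± 0.047). Subunits of the respiratory chain had 9 of 70 higher and 3 lower, below the 19.5% and 8.01% of all genes. After centring they had 3 higher and 15 lower, beside 12.5% and 15.6% of all genes. After quantile normalization they had 3 higher and 7 lower, beside 12.7% of all genes higher and 2189 of 18194 genes lower. Without replicate 1 of day 6, 2 were higher, and without replicate 2 of day 6 or of day 3, 4 were.

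The same days were compared in knockout cells, which share no array with the controls but share the days and the split. In both lines the control probe sets set the arrays of day 3 apart. In knockout cells 6092 genes were called (33.5%), 3733 higher and 2359 lower. Of the genes called in controls, 2307 were called in the same direction in knockout cells, which is 46.1% of the control calls and 37.9% of the knockout calls, and 391 were called in opposite directions. Across all genes the 2 sets of differences had a Pearson r of 0.51, a description over genes that are not independent. Of the 124 genes that rose at least 2-fold in controls, 115 were also called higher in knockout cells and 0 lower. Of all genes 20.5% were called higher in knockout cells, and 2359 of 18194 were called lower. Of the 17 that fell at least 2-fold, 10 were also called lower and 3 higher. Col4a1 had 2078 and 2079 in knockout cells of day 6, against 437.0 and 451.2 in those of day 3, a log2 difference of 2.23 beside 2.09 in controls.

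**Figure D4:**
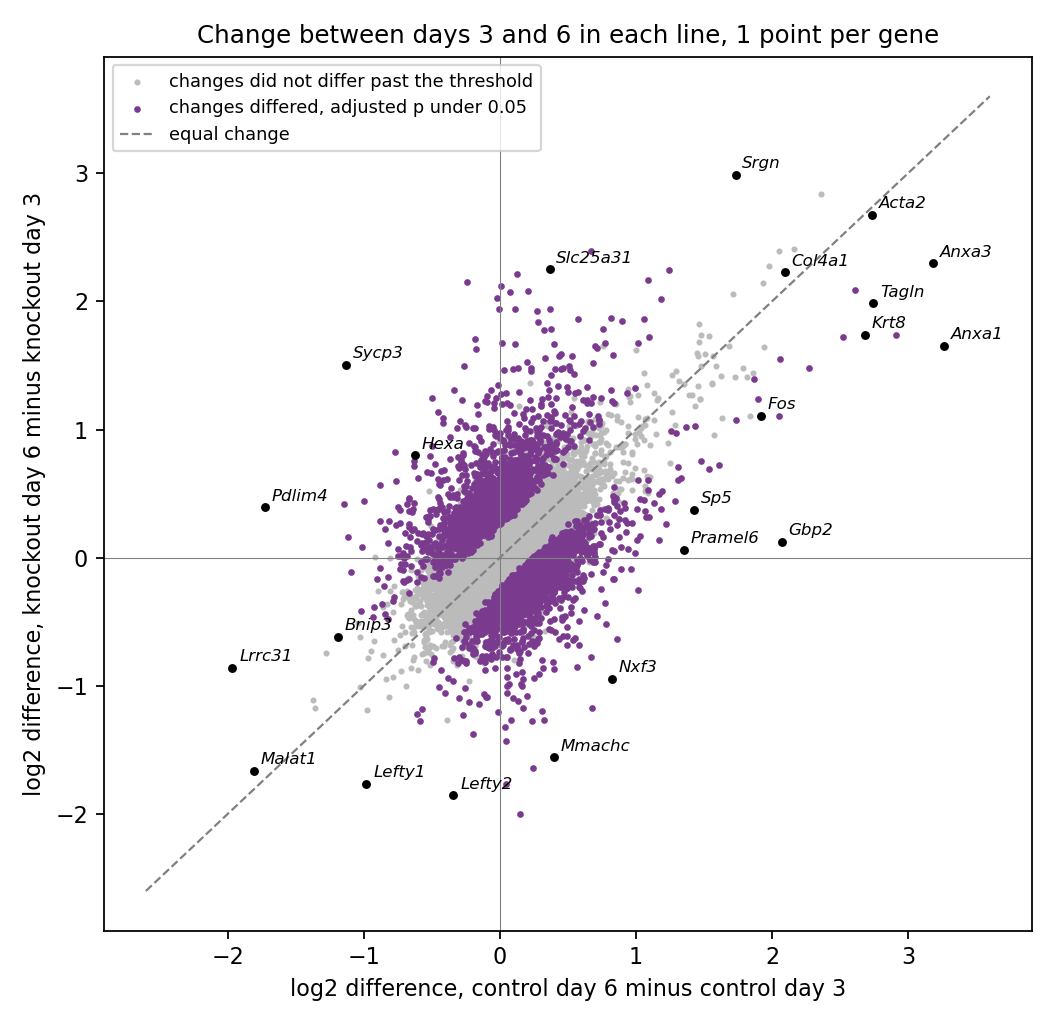
Log2 difference of day 6 minus day 3 in control cells (x axis) and in knockout cells (y axis), 1 point per gene, coloured where the 2 differences differed at an adjusted p under 0.05, with named genes in black. Anxa1, Anxa3 and Krt8 lie to the right of the line of equal change, Col4a1 and Acta2 near it, and Sycp3, Pdlim4 and Hexa to the upper left of it.

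A test of the difference between the 2 changes called 2991 genes (16.4%), 1592 with the control change above the knockout change (8.75%) and 1399 below it (7.69%). Without 1 array of day 6 the count was 1902 (control replicate 1), 1983 (control replicate 2), 1905 (knockout replicate 1) or 1883 (knockout replicate 2). Among the 124 control rises of at least 2-fold, the control change was called above the knockout change in 46 and below it in 7. Among the 17 falls of that size it was below in 10 and above in 0. These genes were chosen by the size of their control change, so their counts are a description. Anxa1 rose by 3.26 in controls and by 1.66 in knockout cells (difference 1.61, adjusted p = 0.00019), since knockout cells of day 3 already read 280.0 and 243.7. Gbp2 (shared probes), an interferon-inducible GTPase, had 144.7 and 163.3 on day 6, against 40.98 and 32.54 on day 3 in controls, and 43.68 and 53.73 on day 6, against 37.99 and 51.98 on day 3 in knockout cells (difference 1.95, adjusted p = 0.00097). Of 24 interferon-stimulated genes 3 were higher and 1 lower in controls, against 19.5% and 8.01% of all genes. Centring gave 2 higher and 5 lower, and quantile normalization 2 higher and 4 lower. Mmachc, which processes vitamin B12, had 605.3 and 598.4 on day 6, against 454.8 and 457.9 on day 3 in controls, and 51.09 and 44.13 on day 6, against 133.2 and 146.8 on day 3 in knockout cells (difference 1.96, adjusted p = 4.5e-05). Nxf3, of the mRNA export family, rose by 0.82 in controls and fell by 0.94 in knockout cells. Zmat5, a zinc finger gene, rose by 0.32 in controls, a call lost with only the 4 control arrays (adjusted p = 0.052), and fell by 1.26 in knockout cells.

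In the other direction Sycp3 fell by 1.13 in controls and rose by 1.51 in knockout cells (difference -2.64, adjusted p = 6.3e-06). Pdlim4 fell by 1.73 in controls and rose by 0.39 in knockout cells (difference -2.12). Hexa fell by 0.62 in controls and rose by 0.80 in knockout cells (difference -1.42). Id4, a helix-loop-helix inhibitor, had 276.8 and 271.5 on day 6, against 354.7 and 338.3 on day 3 in controls, and 746.8 and 701.1 on day 6, against 301.7 and 282.7 on day 3 in knockout cells (difference -1.65). Slc25a31, a mitochondrial ADP and ATP carrier of germ cells, rose by 0.37 in controls and by 2.25 in knockout cells, and its control call was lost with only the 4 control arrays (adjusted p = 0.068), without replicate 1 or 2 of day 6 (adjusted p = 0.064 and 0.057) and without replicate 1 of day 3, where the value was 0.24 (adjusted p = 0.068). Ahnak2, a large scaffold protein, had 220.2 and 198.2 on day 6, against 317.8 and 272.9 on day 3 in controls, and 365.7 and 368.0 on day 6, against 141.0 and 170.3 on day 3 in knockout cells (difference -1.74). Usp17la, a deubiquitinase gene, was higher on day 6 in both lines, by 0.67 in controls and by 2.40 in knockout cells (difference -1.72). Over all genes the control change was above the knockout change in 8.75% and below it in 7.69%. Counted by list, it was below in 16 of 25 genes of lysosome and autophagy, 12 of 16 germline genes and 11 of 20 genes of low nutrient supply and FoxO. It was above the knockout change in 19 of 41 genes of ribosome biogenesis and below it in 0. For primitive endoderm genes it was above in 2 and below in 2 of 19. For SRF and YAP targets it was above in 2 and below in 2 of 25. Both lists were near the shares of all genes. The other members of these lists were not called in this test, which does not show that the lines changed alike.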

How the data were processed

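Mouse 430 2.0 arrays of 12 samples were analysed from the deposited table, whose values are linear intensity values that the authors deposited (the submitters' processing notes name RMA). Log2 of each value was taken here. Each gene was read by the brightest probe set with that single symbol. A group-means model over the 12 arrays was fitted with limma 3.58.1 in R 4.3.3, with empirical Bayes moderation and Benjamini-Hochberg adjustment over 18194 genes, and tested on simulated data. Members and gene lists were chosen with earlier results of these data known. Named genes come from a rule: the 12 largest rises and falls, up to 4 called and the 2 brightest uncalled members of each list, the 6 largest differences between lines in each direction, and Thap11, Hcfc1, Mmachc, Pou5f1, Nanog and Sox2; the text describes only part of the list members, and others are said to be outside this rule. Alternatives were a replicate block, fewer arrays in the fit, eBayes with trend, a filter on dim genes, the mean of probe sets, centring, quantile normalization and leaving out arrays. The rule's promoters of the leading list were not printed, because the Col4a1 and Col4a2 windows lie in each other's transcribed part.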

Additional observations from a re-analysis of the deposited data

Results flagged for a closer look

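Of the 104 genes named in the text, 55 had a change between days that differed between control and knockout cells in the interaction test (limma adjusted p under 0.05). In this test the change from day 3 to day 6 in knockout cells is taken from that in control cells, on the log2 scale. For 30 genes the control change was the higher one: Mmachc (1.96), Gbp2 (1.95), Nxf3 (1.77), Anxa1 (1.61), Zmat5 (1.59), Lefty2 (1.51), Prss23 (1.18), Sp5 (1.05), Thap11 (1.05), Krt8 (0.94), Anxa3 (0.89), Ccnd2 (0.88), Col1a2 (0.86), Fos (0.81), Krt18 (0.80), Lefty1 (0.79), Phldb2 (0.79), Tagln (0.76), Bmp4 (0.72), Sox7 (0.71), Gbx2 (0.71), Vim (0.67), Cryab (0.52), Dnmt3b (0.47), Rars (0.47), Foxd3 (0.42), Polr1b (0.41), Nes (0.38), Stc2 (0.35) and Pdia3 (0.24). For 25 genes it was the lower one: Sycp3 (-2.64), Pdlim4 (-2.12), Slc25a31 (-1.88), Ahnak2 (-1.74), Usp17la (-1.72), Id4 (-1.65), Gpr143 (-1.56), Hexa (-1.42), Cds1 (-1.28), Srgn (-1.25), Lrrc31 (-1.11), Car12 (-0.98), Insr (-0.87), Sycp1 (-0.81), Egln3 (-0.80), Lamp2 (-0.78), Ddit4 (-0.70), Lgals3 (-0.62), Bnip3 (-0.57), Krt7 (-0.56), Sox1 (-0.55), Dusp1 (-0.46), Lamp1 (-0.46), Dusp6 (-0.34) and Ulk1 (-0.34). The difference was no longer called in 1 or more alternatives for Bnip3, Car12, Col1a2, Cryab, Dusp6, Foxd3, Insr, Nes, Pdia3, Phldb2, Sox1, Stc2, Ulk1 and Vim. With the mean of all probe sets it was -0.16 for Insr (adjusted p = 0.24), 0.17 for Stc2 (adjusted p = 0.25), 0.24 for Nes (adjusted p = 0.20) and -0.26 for Sox1 (adjusted p = 0.14). Some of these genes were named by this test, so their number says nothing about the share among all genes.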

How the results depend on the processing

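Leaving out 1 array at a time gave 3072 to 4177 called genes, 2281 to 3037 higher and 791 to 1140 lower in the control comparison, 4136 to 4696 called in knockout cells, and 1883 to 2618 for the difference between lines. With only the 4 control arrays 2760 genes were called, 1957 higher and 803 lower. Median centring gave 2270 higher and 2840 lower, and quantile normalization 2303 higher and 2189 lower. With the replicate block the counts were 4868 called, 3416 higher, 1452 lower, 6024 in knockout cells and 2810 for the difference. The replicate numbers did not pair the control arrays of the 2 days (correlation of deviations 0.01). Of 85 named genes called in the control comparison, 80 kept their call in every alternative run and 5 (Ahnak2, Gata4, Nes, Slc25a31 and Zmat5) lost it in 1 or more. Of 55 called for the difference between lines, 41 kept it and 14 (Bnip3, Car12, Col1a2, Cryab, Dusp6, Foxd3, Insr, Nes, Pdia3, Phldb2, Sox1, Stc2, Ulk1 and Vim) lost it in 1 or more. No direction turned among either set. Some genes not called in the main fit were called in alternatives. With trend and robust variance these were Actg1, Dnmt3b, Gapdh and Lgals3 (limma adjusted p = 0.025, 0.013, 0.042 and 0.046). Gapdh was also called after centring (adjusted p = 0.037) and Dnmt3b without dim genes (adjusted p = 0.048). Nodal was called with the mean of its probe sets (adjusted p = 0.0028). With 2 arrays a group the precision rests on a spread pooled over 6 groups, and dim genes near the floor of the scale carry little information on fold changes.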

Other observations

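Of 23 measured imprinted genes 9 were higher and 1 lower in control cells of day 6 than of day 3, with a median log2 difference of 0.18. Of all genes 19.5% were higher and 8.01% lower. Of 20 genes of cholesterol synthesis and uptake 7 were higher and 1 lower, against 4 higher and 2 lower after centring and 3 higher and 2 lower after quantile normalization. Without either array of day 6, 4 of them were higher, and without replicate 2 of day 3, 3 were. Heat shock genes had 7 of 13 higher and 0 lower, with a median of 0.26. Of 26 p53 target genes 6 were higher and 5 lower in controls, beside 19.5% and 8.01% of all genes, and 4 were higher and 9 lower after either rescaling. Without replicate 1 of day 6, 2 were lower, and without replicate 2 of day 6, 3 were. In knockout cells 17 were higher, beside 20.5% of all genes, and 0 lower. The control change was below the knockout change in 12, beside 7.69% of all genes. Of 15 fatty acid synthesis genes 1 was higher and 3 lower in controls, beside 19.5% and 8.01% of all genes. In knockout cells 0 of these 15 were higher and 10 lower, beside 20.5% of all genes higher and 2359 of 18194 genes lower. The control change was above the knockout change in 7 of the fatty acid genes, beside 8.75% of all genes.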
